A study of Mus musculus with 43 samples.

Results

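The mitochondrial chromosome carries 37 genes, which encode 13 proteins, 2 ribosomal RNAs and 22 transfer RNAs. They were taken by their position on this chromosome and by symbols that begin with mt-, and all 37 were among the 55416 genes counted in each of 43 RNA-seq libraries. The libraries held cells from the cortex of 3-month-old mice, purified by immunopanning, that is, caught on dishes that carry an antibody against a surface molecule. Anti-CD45 took microglia, anti-PDGFRA took oligodendrocyte precursor cells (OPCs), a GalC hybridoma antibody took oligodendrocytes and anti-HepaCAM took astrocytes. Rag2-/- mice lack mature T and B lymphocytes in the whole body, so the mutation is not limited to 1 glial type. The mutant line had been crossed with C57BL/6J, and the Rag2-/- mice were compared with littermates that were Rag2 +/- in pairs 1, 2, 3 and 5 and Rag2 +/+ in pairs 4 and 6. Oligodendrocytes came from 4 control and 4 Rag2-/- mice, OPCs from 6 and 5, and astrocytes and microglia from 6 and 6 each. The mice of a pair were of the same sex except in pair 6. Libraries of 1 type were pooled on the same lane, so that a difference between types and one between lanes cannot be told apart. Rag2 itself had 0 counts in 21 of 21 Rag2-/- libraries, but it had counts in only 3 of 22 control libraries, at most 4, so it does not check the genotype labels.

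Mitochondria keep a small circular genome that is transcribed from both strands into long RNAs, which are cut at the tRNAs into separate messages, rRNAs and tRNAs. The proteins are core subunits of complexes I, III and IV of the respiratory chain and of ATP synthase (complex V), and the rRNAs build the mitochondrial ribosome. All other mitochondrial proteins, including those that copy and process these RNAs, are made from nuclear genes. Fragments of the mitochondrial genome have also been inserted into nuclear chromosomes during evolution, and reads from such a stretch can fit both places.

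Only 9 of the 37 genes had over 100 counts in every library. They were both rRNA genes (mt-Rnr1 and mt-Rnr2), 5 complex I genes (mt-Nd1, mt-Nd2, mt-Nd4, mt-Nd5 and mt-Nd6), mt-Co1 of complex IV and mt-Cytb of complex III. The other 6 protein genes had at most 22 counts in any library. These were mt-Co2 and mt-Co3 of complex IV, mt-Atp6 and mt-Atp8, which hold the only mitochondrial subunits of ATP synthase, and mt-Nd3 and mt-Nd4l of complex I. Without mt-Nd3, whose median was 6 counts, none of these exceeded 5 counts, and mt-Atp8 had 0 counts in all 43 libraries.

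The low genes lie together on the chromosome, inside a segment that the nuclear genome repeats almost without change. Bases 6394 to 11042 of the mitochondrial chromosome matched 4648 bases on the minus strand of chr1:24650616-24655265 in GRCm39, in exact runs of 3067, 367 and 1214 bases. Positions here are counted along the mitochondrial chromosome of that build. The single substitution was T9461C, at the start of mt-Nd3, where the mitochondrial base stands first, and the single gap was 1 base in mt-Tr, the gene of a tRNA. The stretch around the substitution is shown because it holds the only base of the low protein genes at which the 2 sequences differ, and capitals mark that base. The first line is the plus strand of chrM:9431-9491 and the second is the matching strand of chr1:24652168-24652228.

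mt-Nd3 start, mitochondrial: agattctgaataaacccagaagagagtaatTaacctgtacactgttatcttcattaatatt
mt-Nd3 start, nuclear copy: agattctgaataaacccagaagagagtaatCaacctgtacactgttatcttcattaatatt

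The ends of the copied segment fall inside mt-Co1 and mt-Nd4, which are both counted genes. They are shown on the plus strand, at chrM:6364-6424 in mt-Co1 and chrM:11012-11072 in mt-Nd4, with the copied bases in capitals.

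left end: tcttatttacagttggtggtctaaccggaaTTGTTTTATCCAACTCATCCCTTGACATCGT
right end: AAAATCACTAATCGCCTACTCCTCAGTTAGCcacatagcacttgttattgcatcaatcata

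In mt-Co2, mt-Co3, mt-Atp6, mt-Atp8 and mt-Nd4l, 100% of all 50-base windows, the length of 1 mate of a read pair, had an exact copy in a nuclear chromosome. In mt-Nd3 the share was 99.0%, and only 3 windows, those at its first bases, were without a copy. The genes that the border cuts kept windows of their own, with 51.1% copied in mt-Co1 and 62.2% in mt-Nd4, and their median counts were 159166 and 20048. Of the other counted genes, mt-Nd2 had 8.29% of its windows copied, mt-Nd5 7.61% and mt-Rnr2 6.13%, while mt-Rnr1, mt-Nd1, mt-Nd6 and mt-Cytb had none. Over the whole chromosome of 16299 bases, 35.7% of the windows were copied. Read pairs with several possible places in the genome entered no gene count and were not used here. They made up 5.90% to 13.3% of each library. How many of them came from the mitochondrion was not tested. The levels of the 6 low genes in these cells cannot be read from the counts.

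**Figure D1:**
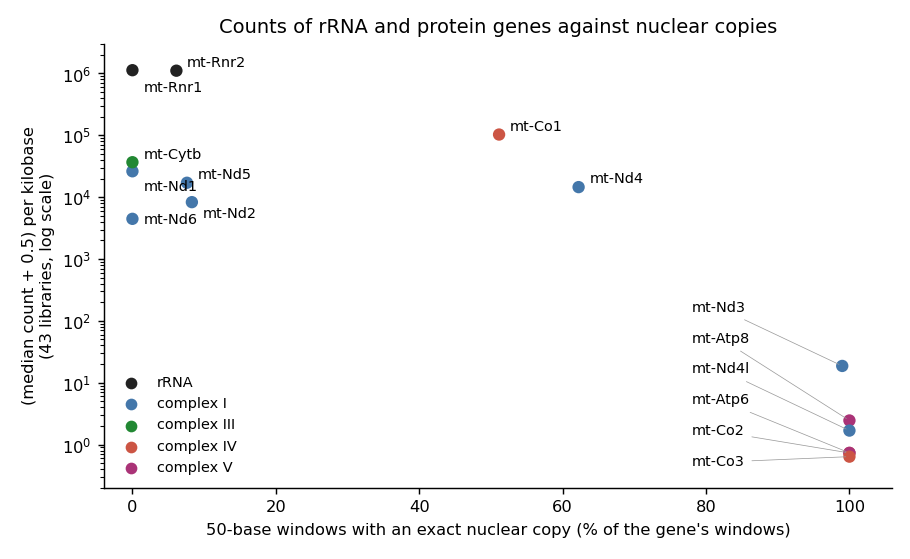
Median count of each rRNA and protein gene over 43 libraries, with 0.5 added, per kilobase on a log scale, against the percentage of its 50-base windows that have an exact copy in the nuclear genome; colours mark rRNA and the respiratory complexes. The 9 counted genes have at most 62.2% of their windows copied, and the 6 genes at 99.0% or 100% have median counts of 6 or lower.

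Of the 22 tRNA genes, which carry amino acids to the mitochondrial ribosome, 15 had 0 counts in every library. All but mt-Tp and mt-Tt reached at most 2 counts, and mt-Tt reached 7. Nuclear copies held every window of 9 tRNA genes and no window of 11 others. The tRNA genes are 59 to 75 bases long, and 19 of them lie within 5 bases of another gene on both sides. Read pairs on more than 1 gene also entered no gene count, at 1.56% to 4.85% of a library, and their part in the low tRNA counts was not tested.

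The exception was mt-Tp, the proline tRNA gene, with 2 to 192 counts and a median of 42. It lies on the minus strand at chrM:15356-15422 and borders 877 bases with no gene, the control region. The strand setting of the counting was not given in the sources used here. RNA of the opposite strand thus cannot be told apart from mt-Tp. mt-Tp is printed on its own strand because it was the only tRNA gene with counts in every library. Below it stands mt-Tt, the threonine tRNA gene on the plus strand at chrM:15289-15355, which adjoins it, has the same length and likewise no copied window. Nothing is capitalized in these.

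mt-Tp: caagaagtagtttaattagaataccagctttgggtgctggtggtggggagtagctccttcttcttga
mt-Tt: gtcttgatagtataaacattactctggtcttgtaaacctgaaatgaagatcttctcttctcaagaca

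In oligodendrocytes mt-Tp had 152, 146, 72 and 171 counts in controls and 192, 147, 157 and 186 in Rag2-/-. In OPCs its counts ran from 45 to 134, in astrocytes from 8 to 87 and in microglia from 2 to 40. Oligodendrocyte and OPC libraries thus overlapped in raw counts, as did astrocytes and microglia, and microglia had the lowest median. mt-Tf, the phenylalanine tRNA gene, adjoins the same control region on the circle but begins at base 1 of the linear reference, and it never exceeded 1 count.

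The 37 genes held a very different share of the gene counts in each cell type. Oligodendrocytes had 53.6% ± 4.79 (SD, n = 8), astrocytes 34.3% ± 6.24 (n = 12), OPCs 28.2% ± 4.03 (n = 11) and microglia 9.42% ± 1.23 (n = 12). Oligodendrocyte libraries ranged from 45.8% to 60.1% and microglial ones from 6.75% to 11.7%, and neither range met that of another type. Astrocytes, from 22.5% to 45.1%, overlapped OPCs, from 22.4% to 36.7%. Among 7 mice with all cell types, 7 had the order oligodendrocyte, astrocyte, OPC, microglia, but over 11 mice with both, astrocytes stood above OPCs in 8. These samples are pools of cells, in which more cells of a type and more RNA per cell cannot be told apart.

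Ribosomal RNA made up most of this share. Together mt-Rnr1 and mt-Rnr2, the small and the large rRNA, held 91.4% ± 1.26 of the mitochondrial counts in astrocytes, 90.8% ± 0.756 in oligodendrocytes, 89.7% ± 0.573 in OPCs and 88.2% ± 1.81 in microglia. The 13 protein genes held 4.95% ± 0.632 of all gene counts in oligodendrocytes, 2.93% ± 0.526 in astrocytes, 2.90% ± 0.450 in OPCs and 1.10% ± 0.169 in microglia. Astrocytes and OPCs, which stood apart in mean rRNA, differed by less than their spread in protein genes. Of the protein gene counts, complex IV, nearly all of it mt-Co1, held 52.2% in OPCs, 55.6% in oligodendrocytes, 56.9% in astrocytes and 46.2% in microglia. The share of complex III, which is mt-Cytb, was highest in microglia, at 19.8% ± 1.58, and lowest in oligodendrocytes, at 12.6% ± 0.918. All of these are shares of counts, to which the 6 low protein genes, with both of complex V, add almost nothing. Of the windows of mt-Co1 51.1% and of mt-Nd4 62.2% had a nuclear copy. The composition of the mitochondrial RNA in the cells cannot be read from these shares.

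The labelled cell types were checked with summed levels of marker genes, in CPM, counts scaled to a common library total, of nuclear genes alone. Markers of the own type were highest in every type except in astrocytes, in which 7 oligodendrocyte markers summed to 4883 to 10060 CPM and 6 astrocyte markers to 5223 to 7155. In oligodendrocyte libraries the same 7 genes summed to 36315 to 48526 CPM. Neuronal markers, 7 in all, were highest in oligodendrocyte libraries, at 775 to 3906 CPM against 567 to 1106 in OPCs, 165 to 513 in astrocytes and 63.1 to 148 in microglia. All members of these lists had counts in all types. Lymphocyte markers summed to at most 6.33 CPM in any library. The part of such RNA in the mitochondrial share was not tested. Gene counts per library ran from 6499417 to 23118497, and the read pairs that met no gene were a mean of 24.4% in oligodendrocytes and 38.0% in microglia.

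**Figure D2:**
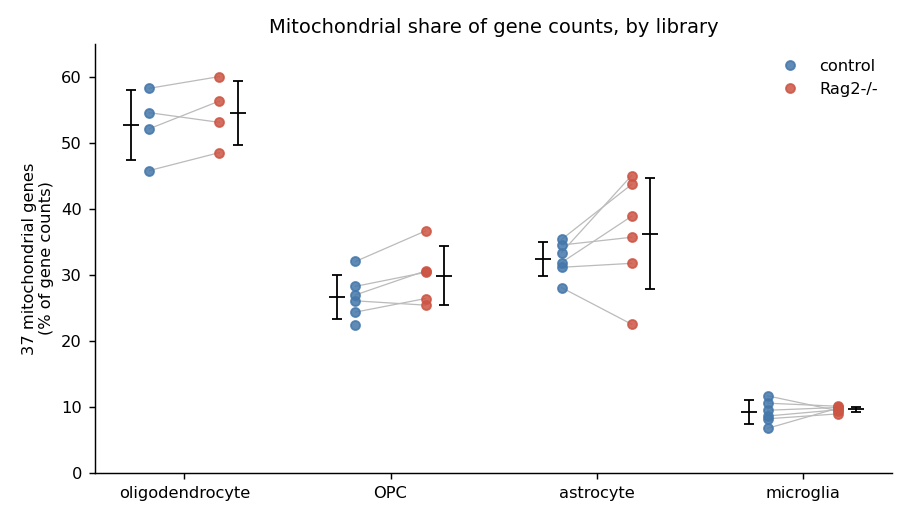
Share of the 37 mitochondrial genes in the gene counts of each library, in percent, by cell type and genotype; points are libraries, grey lines join littermates, and bars give the mean ± SD. Oligodendrocytes lie between 45.8% and 60.1% and microglia between 6.75% and 11.7%, and control and Rag2-/- points overlap in every type.

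Levels of single genes were compared between cell types with edgeR, after TMM normalization of all 43 libraries together, with sex and genotype as terms. After a filter on low counts 11 members were tested, and the 9 counted genes passed it in every cell type. The 9 genes were higher in oligodendrocytes than in OPCs, than in astrocytes and than in microglia, where 17.7%, 28.9% and 36.6% of the 19209 genes tested were called higher. They were also higher in OPCs than in microglia and in astrocytes than in microglia, where 40.3% and 38.2% of all genes were. Between astrocytes and OPCs, 4 of the 9 were called higher in astrocytes, against 18.1% of all genes, and none lower. Total gene counts as the scale moved the median of all genes in this comparison from -0.13 to -0.53 (log2), which put 5 of the 9 below 0 and left 2 called. Relative to that median, the 9 genes had log2 values from 0.28 to 0.92 under both scalings. Calls here have a Benjamini-Hochberg adjusted p under 0.05 over all genes.

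The gap to microglia was widest for mt-Rnr1, the rRNA of the small ribosomal subunit. Its normalized CPM ran from 215040 to 455010 with a median of 320140 in oligodendrocytes, from 88270 to 201691 with a median of 126691 in astrocytes, from 49520 to 119082 with a median of 71504 in OPCs, and from 9997 to 24096 with a median of 18514 in microglia. No library of oligodendrocytes or microglia met another type, while astrocytes and OPCs overlapped. Oligodendrocytes exceeded microglia by a log2 fold change of 4.19 ± 0.15 (SE, edgeR adjusted p = 6.06e-27), astrocytes by 2.88 ± 0.14 and OPCs by 2.09 ± 0.14. Astrocytes exceeded OPCs by 0.79 ± 0.13 (edgeR adjusted p = 3.67e-06).

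mt-Rnr2, the rRNA of the large subunit, was less uneven. Its normalized CPM had medians of 499171 in oligodendrocytes, 186095 in astrocytes, 120849 in OPCs and 52863 in microglia. Microglia, from 36696 to 86273, lay below the lowest OPC library at 87740. The log2 fold change of oligodendrocytes over microglia was 3.23 ± 0.14, and that of astrocytes over OPCs was 0.67 ± 0.13.

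mt-Co1, a catalytic subunit of cytochrome c oxidase, led the protein genes, with median normalized CPM of 45293 in oligodendrocytes, 17062 in astrocytes, 11735 in OPCs and 4403 in microglia. Oligodendrocyte libraries began at 31332, above the highest astrocyte library at 24775, and microglia ended at 4892, below the lowest OPC library at 7730. Its log2 fold change was 3.45 ± 0.13 for oligodendrocytes over microglia, 1.43 ± 0.13 over astrocytes and 0.51 ± 0.12 for astrocytes over OPCs.

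The complex I genes and mt-Cytb had smaller differences than mt-Rnr1 and mt-Co1 between oligodendrocytes and microglia. Oligodendrocytes exceeded microglia by log2 fold changes of 3.31 for mt-Nd2, 3.28 for mt-Nd1, 2.97 for mt-Nd5, 2.81 for mt-Nd4, 2.68 for mt-Nd6 and 2.53 for mt-Cytb, the subunit of complex III. Between astrocytes and OPCs, mt-Nd5 was the only one of them called, at 0.44 ± 0.13 (edgeR adjusted p = 0.00333), and mt-Cytb stood at 0.28 ± 0.12 (adjusted p = 0.056). mt-Nd1, mt-Nd2, mt-Nd4 and mt-Nd6 had log2 values from 0.15 to 0.17, with adjusted p from 0.358 to 0.511. mt-Nd6 is the only protein gene of the minus strand and overlaps mt-Nd5 by 14 bases. The strand setting of the counting was not given in the sources used here, so RNA of the opposite strand cannot be told apart from mt-Nd6.

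mt-Nd3 passed the filter on low counts through oligodendrocytes alone, so a difference there was a condition of its being tested. It had 17, 7, 10 and 20 counts in control and 22, 18, 14 and 17 in Rag2-/- oligodendrocytes, and 0 to 8 in microglia. mt-Tp reached log2 fold changes of 3.52 ± 0.29 for oligodendrocytes over microglia and 2.62 ± 0.28 over astrocytes, where the 9 counted genes ended at 1.93. For astrocytes against OPCs it stood at -0.54 ± 0.26 (adjusted p = 0.0871), while the 9 counted genes had values above 0 under TMM scaling, and this difference between genes was not tested.

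Normalized to the windows without a nuclear copy, levels could be ordered between genes. Per 1000 such windows, oligodendrocytes had a normalized CPM of 360240 ± 87056 (SD, n = 8) for mt-Rnr1 and 346460 ± 58656 for mt-Rnr2, which do not differ beyond their spread. mt-Co1 followed with 64158 ± 16047. mt-Nd1 (10610 ± 3102), mt-Nd4 (10395 ± 2102) and mt-Cytb (9704 ± 2430) overlapped in their spread. Then came mt-Nd5 (4745 ± 775), mt-Nd2 (3537 ± 917) and mt-Nd6 (1499 ± 378), and mt-Nd2 and mt-Nd6 were the lowest pair in all 4 cell types. In microglia mt-Rnr2, at 36999 ± 8489 (n = 12), stood above mt-Rnr1, at 19779 ± 3833. Per kilobase of the whole gene the order differs, with mt-Nd4 at 3787 in oligodendrocytes, below mt-Cytb at 9288 and mt-Nd5 at 4266, and with mt-Co1, still the third, at 30356. The order of these genes thus depends on whether copied windows are counted. The first order uses only windows of 50 bases and not the true length of the fragments, which was not given in the sources used here.

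**Figure D3:**
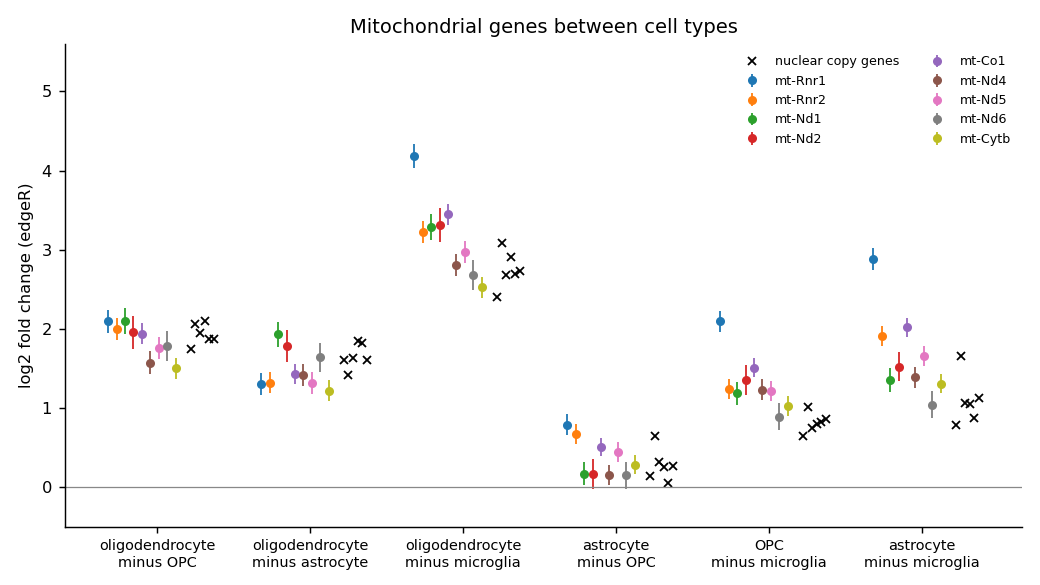
Log2 fold changes between cell types (edgeR, normalized by TMM) of the 9 counted mitochondrial genes with their SE, and of 6 nuclear genes that lie on copies of the mitochondrial genome. All 9 genes are above 0 in each comparison, from 0.15 to 4.19, although total gene counts as the scale, which lower the median of all genes for astrocytes minus OPCs from -0.13 to -0.53, put 5 of them below 0 there and leave the 9 at 0.28 to 0.92 above that median, and the 6 copy genes range from 0.05 to 3.08.

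Genes are also annotated on the nuclear copies, and read pairs that fit both places entered the count of neither. Of 16 such genes in the count files, 6 had at least 100 counts in a library. Gm28437, Atp6-ps, Gm28661 and Gm29216 lie side by side on the near-exact copy on chromosome 1, and Gm13341 and Gm13340 on a copy on chromosome 2 that is 97.4% identical to mitochondrial bases 4441 to 7699. All are annotated as unprocessed pseudogenes. Their highest counts were 138, 193, 234, 336, 218 and 471, far below those of the counted mitochondrial genes, and all copy genes together held at most 0.0137% of the gene counts of a library.

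These 6 copy genes, like the counted mitochondrial genes, were highest in oligodendrocytes. Atp6-ps, a pseudogene of mt-Atp6, had a mean normalized CPM of 20.6 ± 5.08 in oligodendrocytes, 6.85 ± 1.83 in astrocytes, 6.16 ± 1.59 in OPCs and 3.94 ± 0.797 in microglia. Its oligodendrocyte libraries, from 11.5 to 27.9, lay above all others, the highest of which was an astrocyte library at 9.95. The 6 genes were called in 6 of 6 cases for oligodendrocytes over microglia, with log2 fold changes from 2.40 to 3.08, where the 9 mitochondrial genes had 2.53 to 4.19. Of all genes tested, 36.6% were called higher there. For oligodendrocytes over OPCs the copy genes had 1.75 to 2.10 against 1.502 to 2.10. For astrocytes over OPCs they had 0.05 to 0.64, of which 1 was called, where 18.1% of all genes were called higher. A count of at least 100 in some library was the condition for keeping these 6, which favours genes that are high in some type. Their levels are not a measure of the 6 low genes, and whether read pairs on them came from nuclear RNA or from mitochondrial RNA was not tested.

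Ratios between mitochondrial genes do not depend on how a library is scaled. Of 7 ratios planned, 3 involved a gene with at most 5 counts and had no value. The remaining 4 were compared on a log2 scale, with 0.5 added to each count, by permutation tests between libraries, two-sided, exact where a group had under 10 libraries and with 100000 resamples otherwise. P-values were adjusted over 24 comparisons between cell types, of which 13 had an adjusted p under 0.05.

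The 2 rRNAs are cut from a shared precursor RNA. The ratio of mt-Rnr2 to mt-Rnr1 was 2.99 ± 0.362 (SD, n = 12) in microglia, 1.67 ± 0.159 (n = 11) in OPCs, 1.55 ± 0.123 (n = 8) in oligodendrocytes and 1.502 ± 0.106 (n = 12) in astrocytes. Microglial libraries ranged from 2.47 to 3.67 and all others from 1.27 to 2.09, so they did not overlap. In microglia the ratio was above that of the other type in 12 of 12 mice against astrocytes, 11 of 11 against OPCs and 8 of 8 against oligodendrocytes. Its log2 difference was -0.94 for oligodendrocytes minus microglia (exact permutation p = 7.94e-06, adjusted p = 4.80e-05). It was -0.84 for OPCs minus microglia and -0.99 for astrocytes minus microglia, both with a permutation p of 1e-05, the smallest that 100000 resamples can give. These tests treat libraries of a mouse as independent. With sign flips within mice, the adjusted p was 0.0268, 0.00781 and 0.00586, in the same order. Astrocytes stood below OPCs by 0.15 on the log2 scale, a difference of -0.15 with overlapping libraries (permutation adjusted p = 0.0066, and 0.0577 with control libraries alone).

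mt-Cytb and mt-Nd1, a late and an early gene of the same long transcript, set oligodendrocytes apart. The ratio of their counts was 1.12 ± 0.0970 (n = 8) in oligodendrocytes and higher in the others, at 1.68 ± 0.105 for OPCs, 1.86 ± 0.252 for astrocytes and 1.88 ± 0.208 for microglia. The oligodendrocyte libraries ranged from 0.993 to 1.27, and the lowest of all others was 1.46. On the log2 scale oligodendrocytes were different by -0.59 against OPCs (exact permutation p = 1.32e-05, adjusted p = 5.29e-05), by -0.73 against astrocytes and by -0.75 against microglia (exact permutation p = 7.94e-06 for both, adjusted p = 4.80e-05). The direction held in 7 of 7, 8 of 8 and 8 of 8 mice, with adjusted p of 0.0332, 0.0268 and 0.0268 by sign flips within mice. OPCs were below microglia by a log2 difference of -0.16 (permutation adjusted p = 0.0259), and the adjusted p was 0.0744 within mice and 0.357 with control libraries alone. For astrocytes minus OPCs the log2 difference was 0.13 (permutation adjusted p = 0.0776, and 0.0332 within mice).

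mt-Nd6 and mt-Nd5 lie on opposite strands and overlap at their ends, and RNA of the opposite strand cannot be told apart from mt-Nd6. Their ratio was 0.112 ± 0.0259 in microglia, 0.0924 ± 0.0263 in oligodendrocytes, 0.0878 ± 0.0122 in OPCs and 0.0702 ± 0.0142 in astrocytes. Libraries of all types overlapped. Astrocytes were below microglia by a log2 difference of -0.66 (permutation adjusted p = 4.11e-04), in 12 of 12 mice, and below OPCs by -0.34 (adjusted p = 0.0124). OPCs were below microglia by -0.32 (permutation adjusted p = 0.0345), and oligodendrocytes above astrocytes by 0.38 (exact permutation adjusted p = 0.0434). With control libraries alone neither was called, with permutation adjusted p of 0.231 and 0.29.

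The large rRNA and mt-Co1 kept a nearly even ratio. mt-Rnr2 had 10.5 ± 1.11 times the counts of mt-Co1 in OPCs, 10.8 ± 1.22 in oligodendrocytes, 11.5 ± 2.00 in astrocytes and 12.5 ± 2.46 in microglia. Of the 6 comparisons 1 was called, OPCs minus microglia at a log2 difference of -0.23 (permutation adjusted p = 0.036), and it had an adjusted p of 0.0703 within mice and 0.322 with control libraries alone.

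**Figure D4:**
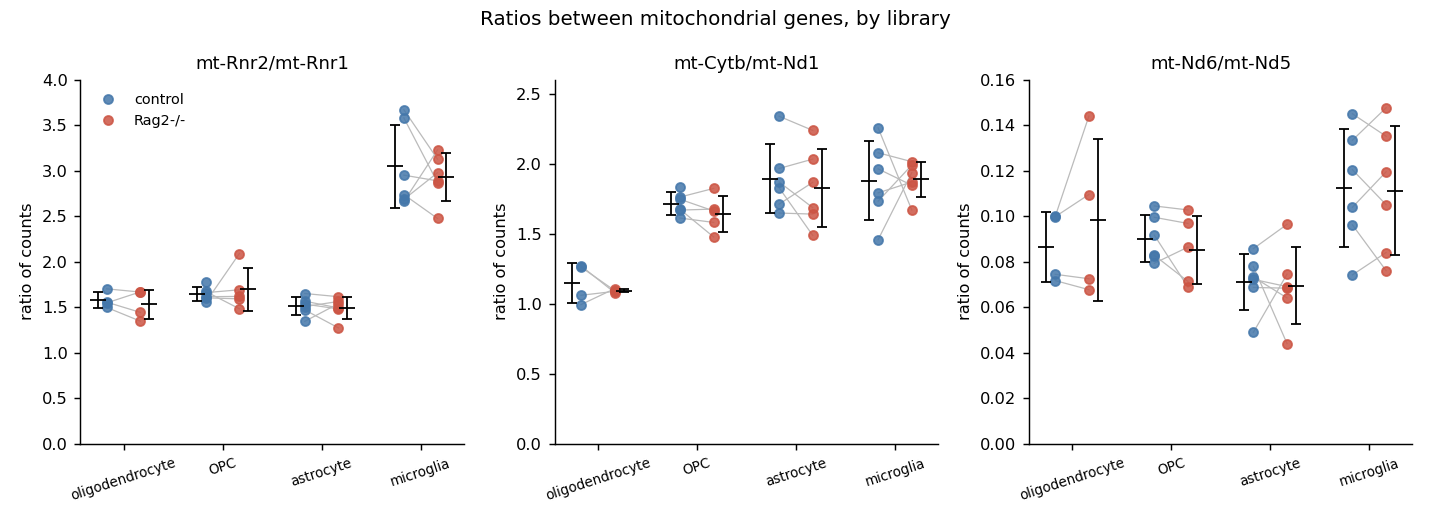
Ratios of counts between 3 pairs of mitochondrial genes in each library, by cell type and genotype; points are libraries, grey lines join littermates and bars give the mean ± SD. Microglia lie apart in mt-Rnr2/mt-Rnr1, from 2.47 to 3.67, and oligodendrocytes in mt-Cytb/mt-Nd1, from 0.993 to 1.27.

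The genotype comparison asked whether a lack of lymphocytes changes glial gene expression. The mitochondrial share of oligodendrocytes was 54.6%, 45.8%, 52.2% and 58.3% in controls of pairs 1, 3, 5 and 6, and 53.1%, 48.5%, 56.4% and 60.1% in their Rag2-/- littermates. In OPCs it ran from 22.4% to 32.04% with a median of 26.5% in controls, and was 25.4%, 30.4%, 26.4%, 36.7% and 30.6% in Rag2-/- mice of pairs 1, 2, 3, 4 and 6. In astrocytes it ran from 28.1% to 35.4% with a median of 32.6% in controls and from 22.5% to 45.1% with a median of 37.3% in Rag2-/-. In microglia it ran from 6.75% to 11.7% with a median of 9.06% in controls and from 8.94% to 10.1% with a median of 9.68% in Rag2-/-. The groups overlapped in all 4 cell types.

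The mean share was higher in Rag2-/- by 1.81 percentage points in oligodendrocytes, by 3.22 in OPCs, by 3.87 in astrocytes and by 0.405 in microglia. Within littermate pairs it was higher in Rag2-/- in 3 of 4, 4 of 5, 5 of 6 and 4 of 6 pairs. These counts are not independent across cell types, since the cells came from the same mice, and the share was not tested. In oligodendrocytes the difference was -0.491 without control replicate 3 and -0.0413 without Rag2-/- replicate 6, and in microglia it was -0.0877 without control replicate 3. In OPCs it was 1.52 without Rag2-/- replicate 4, and in astrocytes it was 2.11 without Rag2-/- replicate 6 and 6.62 without Rag2-/- replicate 2. Pair 6 set a female Rag2-/- mouse against a male control, and the shares were not adjusted for sex. Sex and genotype thus cannot be told apart in that pair. Its difference was 11.7 points for astrocytes, the largest of their 6 pairs, 3.64 for OPCs, 1.78 for oligodendrocytes and -0.465 for microglia.

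In astrocytes the libraries of highest and lowest share also had the highest and lowest sum of oligodendrocyte markers. The Rag2-/- libraries of pairs 6 and 1 had the highest shares, 45.1% and 43.7%, and oligodendrocyte markers at 10060 and 7931 CPM of nuclear counts, and that of pair 3 had 38.9% and 9204 CPM. The Rag2-/- library of pair 2 had the lowest share, 22.5%, and these markers at 4883 CPM, the lowest of the 12. The controls ranged from 5764 to 7199 CPM. In oligodendrocytes both libraries of pair 3 had the lowest shares and also the lowest neuronal markers, at 814 and 775 CPM. They also had the highest microglial markers, at 1203 and 1114 CPM, and the highest OPC markers, at 1607 and 1843 CPM. In OPCs markers of astrocytes, oligodendrocytes and endothelial cells had a higher mean in Rag2-/- than in control libraries. The means were 1192 against 767 CPM for astrocyte markers, 1495 against 1154 for oligodendrocyte markers and 88.6 against 51.4 for endothelial markers. Markers of neurons and of microglia had a lower mean in Rag2-/-. The highest astrocyte markers, at 2066 CPM, were in the Rag2-/- library of pair 1. The ranges of both genotypes overlapped for each list. The OPC library of highest share, Rag2-/- of pair 4, had oligodendrocyte markers at 1980 CPM. Its littermate had the highest share of the OPC controls, 32.04%, with these markers at 753 CPM. Higher sums, 2414 and 2135 CPM, were in Rag2-/- of pair 2 and the control of pair 6. Both had lower shares than Rag2-/- of pair 4. The part of these cells in the shares was not tested.

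Tested gene by gene with edgeR, with sex as a term, no mitochondrial gene was called by genotype in any cell type. The background of called genes was 0.0% for oligodendrocytes, 0.00592% for OPCs, 0.00679% for astrocytes and 0.00667% for microglia. Among the 9 counted genes, 0 had an unadjusted p under 0.05 in oligodendrocytes, OPCs and microglia, where 3.38%, 4.02% and 2.91% of all genes did, and 1 had in astrocytes, where 2.87% did. With the littermate pair as a block, edgeR called 0 of the 9 in each type, and at an unadjusted p under 0.05 there were 0 in oligodendrocytes, 2 for OPCs, 0 for astrocytes and 4 for microglia, where 2.78%, 4.89%, 3.49% and 4.78% of all genes were. This block fit kept the term for sex, which rests on pair 6 alone, the only pair of unlike sex. Its genotype effect thus comes from the pairs of like sex, without pair 6. DESeq2 also called 0 of the 9 in each type, and of all genes it called 0.798% for oligodendrocytes, 0.0236% for OPCs, 0.003% for astrocytes and 0.00916% for microglia. The log2 fold changes ran from -0.17 to 0.24 in oligodendrocytes, from 0.17 to 0.29 in OPCs, from 0.23 to 0.53 in astrocytes and from -0.02 to 0.25 in microglia. In oligodendrocytes 8 of the 9 were below 0, with a median of -0.08. That median was 0.09 with the littermate block, 0.12 without control replicate 6 and -0.22 without control replicate 5. Control replicate 6 is the only Rag2 +/+ control there, and its littermate is of the other sex. Control genotype and sex cannot be told apart in this pair, which the block also leaves out of the genotype effect. The values 0.09 and 0.12 are thus not separate checks. The smallest edgeR adjusted p of a counted gene was 0.998 over all these comparisons.

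The single gene of these was mt-Rnr1 in astrocytes, at a log2 fold change of 0.34 ± 0.15 (SE, edgeR adjusted p = 1.0). mt-Rnr2 stood at 0.34 ± 0.17 and mt-Nd2, a complex I subunit, at 0.53 ± 0.31. Without the filter on low counts, edgeR called these 3 genes in astrocytes, where it called 0.0892% of 33626 genes, with adjusted p of 0.00355 for mt-Rnr1, 0.00176 for mt-Rnr2 and 0.00203 for mt-Nd2 and almost the same fold changes. This is the only alternative run in which a counted gene was called by genotype. mt-Tp stood at log2 fold changes of 0.90 ± 0.48 in astrocytes and 0.66 ± 0.43 in microglia (edgeR adjusted p = 1.0 and 0.999).

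**Figure D5:**
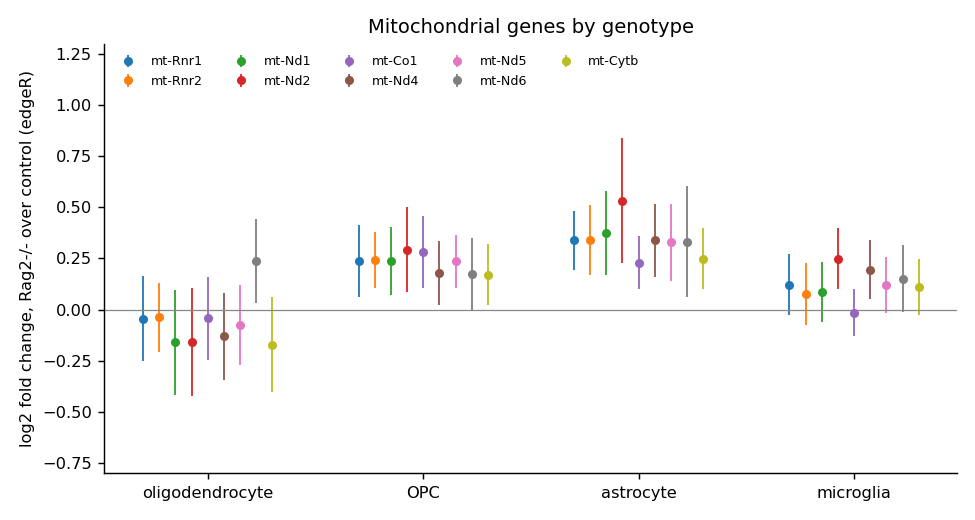
Log2 fold changes of the 9 counted mitochondrial genes in Rag2-/- over control cells, with their SE (edgeR), by cell type. No gene is called in any type, and the values lie between -0.17 and 0.53.

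Ratios between the genes did not show a genotype difference either. Of 16 exact permutation tests, 4 ratios in 4 cell types, 0 had a p under 0.05, and the smallest was 0.258, for mt-Cytb over mt-Nd1 in OPCs, with a log2 difference of -0.06. With 4 against 4 libraries the smallest exact p possible is 0.0286. mt-Rnr2 over mt-Rnr1 differed by log2 values from -0.05 in microglia to 0.03 in OPCs.

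The genotype effect in oligodendrocytes was also set against the mean effect in the other types. The 9 counted genes had log2 differences from -0.43 to -0.03 and 0 were called (edgeR adjusted p from 0.571 to 1.0), while 2.54% of 21368 genes tested were called. None of the 9 had an unadjusted p under 0.05, where 18.3% of all genes had. By sex, 0 of the 9 were called in each type, where 0.0362% of the genes were called in oligodendrocytes, 0.0296% for OPCs, 0.0407% for astrocytes and 0.0467% for microglia. At an unadjusted p under 0.05 there were 2 in oligodendrocytes, where 8.23% of all genes were, 1 in astrocytes, where 6.73% were, and 0 in OPCs and microglia, where 4.3% and 3.92% were. Without the filter on low counts edgeR called 4 of the 9 by sex in oligodendrocytes and 2 in astrocytes, where it called 0.337% and 0.351% of all genes.

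Nuclear genes that make and regulate mitochondrial RNA were followed in a list of 43, of which 42 passed the filter in the comparison of cell types. Slirp, an RNA-binding stabilizer of mitochondrial messages, did not, with 0 to 5 counts. In contrast to the mitochondrial genes, the list did not move one way. For oligodendrocytes over microglia 6 of the 42 were higher and 14 lower, with a median log2 fold change of -0.17, where the median of all genes tested was 0.04. Over OPCs 2 were higher and 10 lower in oligodendrocytes, and over astrocytes 6 were higher and 10 lower. Among all genes 33.1% were lower in oligodendrocytes than in microglia, 22.7% lower than in OPCs and 22.7% lower than in astrocytes. The shares of all genes called higher in oligodendrocytes were 36.6%, 17.7% and 28.9%, in the same order. For OPCs over microglia 8 were higher and 11 lower, for astrocytes over OPCs 5 and 6, and for astrocytes over microglia 13 and 13. Among all genes 40.3%, 18.1% and 38.2% were higher in these comparisons, and 31.4%, 26.1% and 33.8% were lower.

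The widest change in the list was that of Ppargc1a, a coactivator that drives mitochondrial biogenesis. Its normalized CPM was 192 ± 29.5 in astrocytes, 66.2 ± 14.4 in OPCs, 40.9 ± 28.6 in oligodendrocytes and 1.93 ± 0.938 in microglia. Oligodendrocytes ranged from 6.69 to 92.7 and overlapped OPCs, and microglia ended at 3.36. Its log2 fold change over microglia was 6.65 ± 0.31 in astrocytes, 5.12 ± 0.29 in OPCs and 4.40 ± 0.29 in oligodendrocytes. Oligodendrocytes, highest in mitochondrial genes, were below astrocytes in Ppargc1a by a log2 fold change of -2.25 ± 0.28 (edgeR adjusted p = 6.44e-09), while the related coactivator gene Ppargc1b was higher in them by 2.07 ± 0.60 (adjusted p = 0.00355).

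Against microglia, the called genes of the list with the lowest fold changes were regulators of transcription. Gabpb1, a subunit of a transcription factor for nuclear mitochondrial genes, was lower in astrocytes, at -2.99 ± 0.24, and Pprc1, a coactivator of the same family as Ppargc1a, was lower in OPCs, at -2.05 ± 0.22. Tefm, the elongation factor of mitochondrial transcription, was lower in oligodendrocytes, at -2.31 ± 0.42, with normalized CPM of 2.48 ± 2.66 against 11.5 ± 1.77. Against OPCs, oligodendrocytes were lower in Mterf2, of the mitochondrial termination factor family, at -1.61 ± 0.52, and higher in Rexo2, which degrades short mitochondrial RNAs, at 0.84 ± 0.22. Astrocytes minus OPCs gave Gabpb1 at -1.11 ± 0.23 and Ppargc1a at 1.53 ± 0.24. By genotype and by sex, 0 of the 36 to 41 listed genes that passed the filter were called in any type, with at most 3 at an unadjusted p under 0.05 in any of these comparisons, in which 2.87% to 8.23% of all genes had such a p.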

How the data were processed

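RNA of immunopanned cells was amplified as cDNA, and all libraries of a cell type were sequenced on the same lane as read pairs of 50 bases. The authors used STAR 2.7.8a with GRCm39 for alignment and HTSeq for the assignment to Ensembl genes, and they deposited raw counts of read pairs per gene, without normalization. The counting mode and strand setting were not given in the sources used here. Each file also lists 5 sums of read pairs on no gene, which stayed out of library sizes and tests.

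Gene names, coordinates and sequences came from GRCm39 with the GENCODE M39 annotation, which is later than that of the authors. Nuclear copies of the mitochondrial chromosome were found with blastn 2.17.0. Counts were tested with edgeR 4.0.16 in R 4.3.3 by quasi-likelihood, after TMM normalization and filterByExpr (minimum count 10, minimum total 15), and p-values were adjusted over all genes. DESeq2 1.42.0 was an alternative. The fit of cell types and the permutation tests between cell types treat libraries of a mouse as independent. Both kinds of test were tested on simulated data. Alternatives were other scalings, filters, tools, controls and pseudocounts, blocks and each library left out, and DESeq2 for the difference of genotype effects was chosen after seeing the data. Named are all members, listed machinery genes called by genotype or sex and the highest and lowest called per cell type comparison, and copy genes with at least 100 counts. Slirp was named after its counts were seen. Members and lists were chosen with earlier results of these data known.

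Samples were grouped by the labels. The pair numbers mark littermates. The mean correlation of littermates' deviations was 0.111 for oligodendrocytes, 0.0889 for OPCs, 0.135 for astrocytes and 0.0865 for microglia, against -0.0359 to -0.0176 for libraries of other pairs. Within a cell type each library is from another mouse.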

Additional observations from a re-analysis of the deposited data

Results flagged for a closer look

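Of 65 groups of 4 to 10 libraries tested for a library far from the rest, 2 held one, and chance gives about 1 in 20. In microglia of control replicate 1, mt-Rnr2 had 17.6 times the counts of mt-Co1, where the other 5 controls ranged from 9.31 to 11.8. In oligodendrocytes of Rag2-/- replicate 1, mt-Nd6 stood at a normalized CPM of 1083, where the other 7 libraries ranged from 545 to 779.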

How the results depend on the processing

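Of 299 alternative values of counts and shares, 286 stayed within their limits, and of 637 for single genes and ratios, 607 kept direction and call. As a percentage of all read pairs the mean mitochondrial share was 34.1 for oligodendrocytes, 16.3 for OPCs, 21 for astrocytes and 4.67 for microglia. As the 13 protein genes, 6 of them nearly without counts, among protein-coding counts it was 12.97, 4.88, 5.50 and 1.53. Scaling by total gene counts, which the mitochondrial genes themselves fill, moved the median of all genes to -1.19 (log2) for oligodendrocytes minus OPCs, from -0.14, and to -0.58, -0.93 and -0.53 for oligodendrocytes minus astrocytes, oligodendrocytes minus microglia and astrocytes minus OPCs. The share of calls that were higher went from 43.8%, 56.0%, 52.5% and 40.9% to 6.86%, 26.2%, 30.4% and 19.9%. Relative to that median the members of astrocytes minus OPCs had 0.28 to 0.92 under both scalings, but 2 in place of 4 were called (not mt-Co1 and mt-Nd5), and mt-Nd1 (-0.23), mt-Nd2 (-0.23), mt-Nd4 (-0.24), mt-Nd6 (-0.25) and mt-Cytb (-0.11) changed sign. Without the filter on low counts, 3 members were called by genotype in astrocytes (among 30 of 33626 genes), and by sex 4 in oligodendrocytes (99 of 29366) and 2 in astrocytes (118 of 33626), where the main test called 0; the cause was not tested. Over all genes, DESeq2 called 206 by genotype in oligodendrocytes and edgeR without the filter 14, where edgeR called 0.

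With control libraries alone, 8 in place of 13 ratios were called between cell types, from fewer libraries (the 5 lost are given with their p above), and 2 uncalled differences changed sign, mt-Cytb/mt-Nd1 for astrocytes minus microglia (0.0150) and mt-Nd6/mt-Nd5 for oligodendrocytes minus OPCs (-0.0684). With the replicate block, which compares littermates or cells of a mouse, mt-Rnr2/mt-Co1 in OPCs changed sign by genotype (0.0181). The block changed no call by genotype, and it changed no other call between cell types than those of 3 ratios given above and that of mt-Cytb for astrocytes minus OPCs (0.27, edgeR adjusted p = 0.0273). mt-Cytb was called there under 4 further alternatives too, at up to 0.38. Without each library in turn, 0 members and 0 ratios were called by genotype, and the difference in share ranged from -0.491 to 3.80 percentage points in oligodendrocytes, from 1.52 to 4.34 in OPCs, from 2.11 to 6.62 in astrocytes and from -0.0877 to 0.897 in microglia. Heterozygous controls alone and a fit without the term for sex called no member by genotype. Depth does not limit the 9 counted genes, which have 624 counts or more in each library, but it does limit mt-Nd3 and mt-Tp.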
